A study of Mus musculus with 4 samples.

Results

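ATAC-seq, which uses the Tn5 transposase to insert adapters into accessible DNA, was used to locate open chromatin at 10 genes of the circadian clock in mouse skeletal muscle. The genes were Clock, Arntl, Per1, Per2, Per3, Cry1, Cry2, Nr1d1, Nr1d2 and Dbp, and a peak counted as theirs when the authors' annotation gave one of these as its gene, the one with the nearest transcription start site (TSS). This gave 92 of 120839 peaks in 4 lists, which merged into 34 of 53883 regions. A list was analysed for each of 4 muscles: the extensor digitorum longus (EDL), a fast glycolytic hindlimb muscle, the quadriceps (Quad), also largely fast, the oxidative soleus (Sol) and the diaphragm (Dia), which contracts with every breath. All mice were wild type, C57BL/6 in the labels and C57BL/6J in the study's methods, and the labels name no transgene and no treatment. The study's methods describe the animals as young males. For each muscle 1 pooled library was analysed here, so no test between muscles was possible, and the number of animals in a pool is not given in the sources used here. The time of day of the harvest is not given there either.

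The mammalian clock is a transcriptional feedback loop that runs in almost every tissue, skeletal muscle included. CLOCK and BMAL1, the product of Arntl, bind E-boxes and activate the Period and Cryptochrome genes, whose proteins return to inhibit them. The Nr1d genes encode the REV-ERB repressors, which act on Arntl through RORE sites, and DBP activates genes that carry D-boxes.

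Stretches of 7 member regions are shown because they hold exact copies of words for these factors. Letters come from the RefSeq assembly GRCm38.p6, which underlies mm10, and read 5' to 3' on the strand of the gene. Annotated exons were left out, and longer stretches were trimmed to 200 bases. Capitals mark the matches: CACGTG (E-box), CACGTT or its reverse complement AACGTG (E-box-like), TTATGTAA or its reverse complement TTACATAA (D-box) and TAGGTCA (RORE core).
Per1, chr11:69095018-69095107, + strand: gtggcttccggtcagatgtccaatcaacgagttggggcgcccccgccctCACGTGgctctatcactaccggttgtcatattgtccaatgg
Per2, chr1:91459352-91459526, - strand: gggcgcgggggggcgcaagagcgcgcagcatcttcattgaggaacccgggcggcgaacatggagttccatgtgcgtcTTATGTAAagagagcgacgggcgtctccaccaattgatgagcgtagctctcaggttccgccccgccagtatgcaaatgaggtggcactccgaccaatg
Per3, chr4:151044708-151044852, - strand: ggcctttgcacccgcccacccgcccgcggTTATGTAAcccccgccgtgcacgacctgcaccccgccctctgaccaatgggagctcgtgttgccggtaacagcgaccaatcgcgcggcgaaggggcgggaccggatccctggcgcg
Cry1, chr10:85185065-85185264, - strand: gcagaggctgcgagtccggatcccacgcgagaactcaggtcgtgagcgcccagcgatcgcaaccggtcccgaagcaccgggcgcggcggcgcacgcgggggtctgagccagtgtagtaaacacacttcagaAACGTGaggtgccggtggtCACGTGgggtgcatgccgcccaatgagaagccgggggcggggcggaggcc
Nr1d1, intron 1, chr11:98773947-98774146, - strand: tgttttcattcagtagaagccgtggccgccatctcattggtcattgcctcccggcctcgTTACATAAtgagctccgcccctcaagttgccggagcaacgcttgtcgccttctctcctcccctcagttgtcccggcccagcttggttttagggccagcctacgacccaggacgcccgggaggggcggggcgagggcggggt
Nr1d2, chr14:18238440-18238628, - strand: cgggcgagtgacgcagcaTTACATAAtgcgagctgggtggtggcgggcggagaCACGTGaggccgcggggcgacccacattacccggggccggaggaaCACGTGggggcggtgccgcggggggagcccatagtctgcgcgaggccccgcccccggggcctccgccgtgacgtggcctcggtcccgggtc
Dbp, chr7:45704866-45705065, + strand: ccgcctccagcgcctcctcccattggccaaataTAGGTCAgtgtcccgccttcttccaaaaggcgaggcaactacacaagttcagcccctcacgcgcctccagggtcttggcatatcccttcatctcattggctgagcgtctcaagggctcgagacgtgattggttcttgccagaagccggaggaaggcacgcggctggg

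These words were then counted in the central 200 bp of every region, on both strands. The D-box search also took TTACGTAA, the RORE core search also TGGGTCA, and the cAMP response element (CRE) was searched as TGACGTCA. None of these words contains another, but neighbouring matches may share their end letters.

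The E-box CACGTG was found in the promoter region of Cry1, as 1 of 9 member promoter regions, against 7.61% of all 11739 promoter regions on assembled chromosomes. Outside promoters it was found in 4 of 25 member regions, those of Per1, Cry2, Nr1d1 and Nr1d2, against 3.14% of 42114. The Per1 region is outside promoters only by the start site in the authors' annotation. Its peak centres lay -96 to -37 bp from the GENCODE start, so the promoter share of 7.61% is the closer comparison for it. The E-box-like word CACGTT was present in 5 of 9 promoter regions, namely Clock, Cry1, Cry2, Nr1d1 and Per2, while 3.48% of all promoter regions had it. Outside promoters it was in 1 of 25 member regions, at Arntl, against 2.81%. The D-box was present in the promoter regions of Per2 and Per3, 2 of 9 against 0.528%, and in 2 of 25 others, at Nr1d1 and Nr1d2, against 1.22%. RORE cores were seen in 2 of 9 promoter regions, Clock and Dbp, against 3.01%, and in 5 of 25 other regions, at Arntl, Cry1 and Nr1d2, against 6.45%. No member region held the CRE word, which 2.95% of all promoter regions had. The promoter region of Arntl held none of these words in its central 200 bp. That window ends before the GENCODE start of Arntl at chr7:113207465. The absence therefore does not extend to the sequence at and after this start. Median GC content of the windows was 62.5% in member promoter regions and 64% in all promoter regions, and 51% and 51.5% outside promoters. The 4 non-promoter member regions with an E-box were richer in GC, at 59.5% for Per1 and Cry2, 65% for Nr1d1 and 75% for Nr1d2. The part of GC content in the counts was not tested. A match describes the letters and does not show that a factor was bound.

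The numbers of peaks listed were 30136 for EDL and 40337 for Quad, with 28784 for Sol and 21582 for Dia, at 1 width per list of 188 to 232 bp, apart from 1 Sol peak that is no member's. The peak score is the authors' tag count scaled to library size, and the value of 1 tag gave inferred depths of 78.1 M in Quad to 105 M in Sol (M, mega), with 25 to 36 tags in the lowest peak of a list. The percentile of a peak is its rank by score within its own list. Promoter peaks of muscle fibre genes were called for 6, 8, 6 and 5 of 9 markers in EDL, Quad, Sol and Dia, but for 1 of 5 slow fibre markers in each list. Endothelial markers had them in 4, 4, 4 and 2 of 4, satellite cell, leukocyte and Schwann markers in none, and fibroblast markers in 1 of 3 in Sol alone. Peaks of any kind were assigned to 3, 3, 1 and 0 of 4 leukocyte markers, 3, 3, 2 and 1 of 3 fibroblast markers, 1, 2, 1 and 1 of 2 satellite cell markers and 1 of 3 Schwann markers in each list. The part of these cells in the members' peaks was not tested, and fewer cells of a type cannot be told apart from less accessible DNA per cell.

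The strongest peaks of the clock genes lay mostly at their start sites, and nearly all of these sites were open in all 4 muscles. The members had 25 peaks in EDL and 28 in Quad, and 23 in Sol and 16 in Dia, which was 0.083%, 0.0694%, 0.0799% and 0.0741% of the lists. When only the top 20000 scores of every list were kept, the numbers were 16, 17, 18 and 15. Over the whole lists an average member had 2.5, 2.8, 2.3 and 1.6 peaks, and an average gene with any peak had 2.15, 2.59, 2.06 and 1.67. The number of members without a peak was 0 in EDL, Quad and Dia, whereas Sol lacked a peak for Clock. A promoter peak, from 1 kb before to 100 bp after a TSS, was called for 9 members in EDL, Quad and Dia and for 8 in Sol. Among all 17158 genes with a peak in some list, the share with one was 51.8% for EDL and 56.8% for Quad, with 51.5% for Sol and 50.5% for Dia. All 4 lists had a promoter peak for 8 of the 10 members, against 40.8% of those genes.

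**Figure D1:**
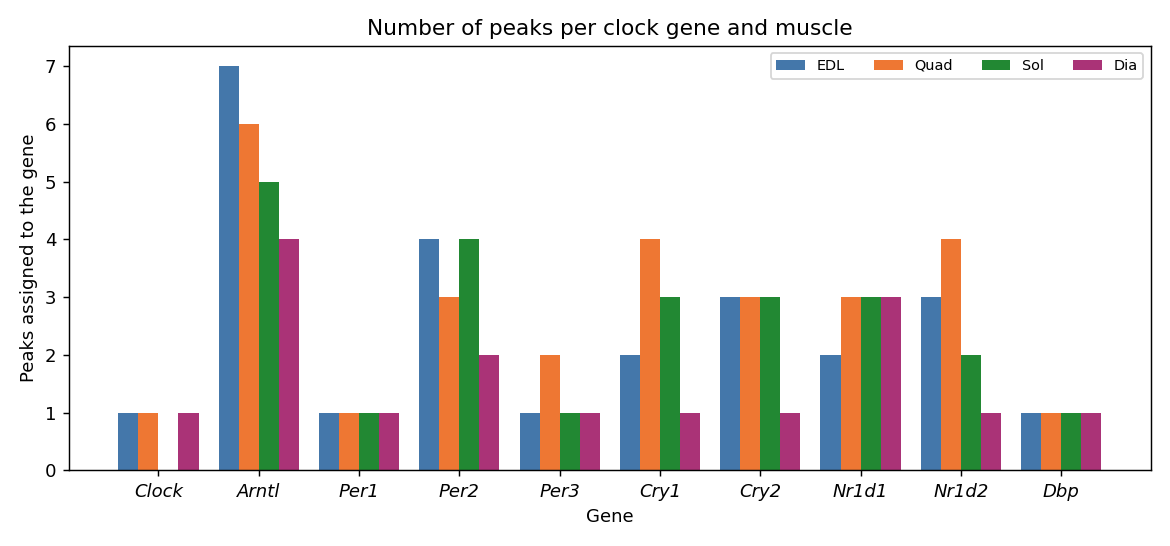
Number of peaks assigned to each clock gene (y axis) in EDL, Quad, Sol and Dia (bars). Arntl had the most, 7 in EDL and 4 in Dia, and Dbp and Per1 had 1 in each list.

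The member promoters ranked high within each list. Their median percentile was 98.1 in EDL and 96.4 in Quad, with 97.6 in Sol and 92.6 in Dia, and that of all promoter peaks was 76.3, 81.3, 75.7 and 74.1. Outside promoters the members' peaks resembled the rest of the lists less uniformly, with medians of 32.7 in EDL and 40 in Quad, beside 50 in Sol and 77.6 in Dia. All non-promoter peaks had medians of 38.3, 40, 38.2 and 34.1. The lists differed mainly in these peaks, 16 in EDL and 19 in Quad, and 15 in Sol and 7 in Dia, of which 13, 13, 10 and 4 were in introns. A median over 7 Dia peaks rests on few values.

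**Figure D2:**
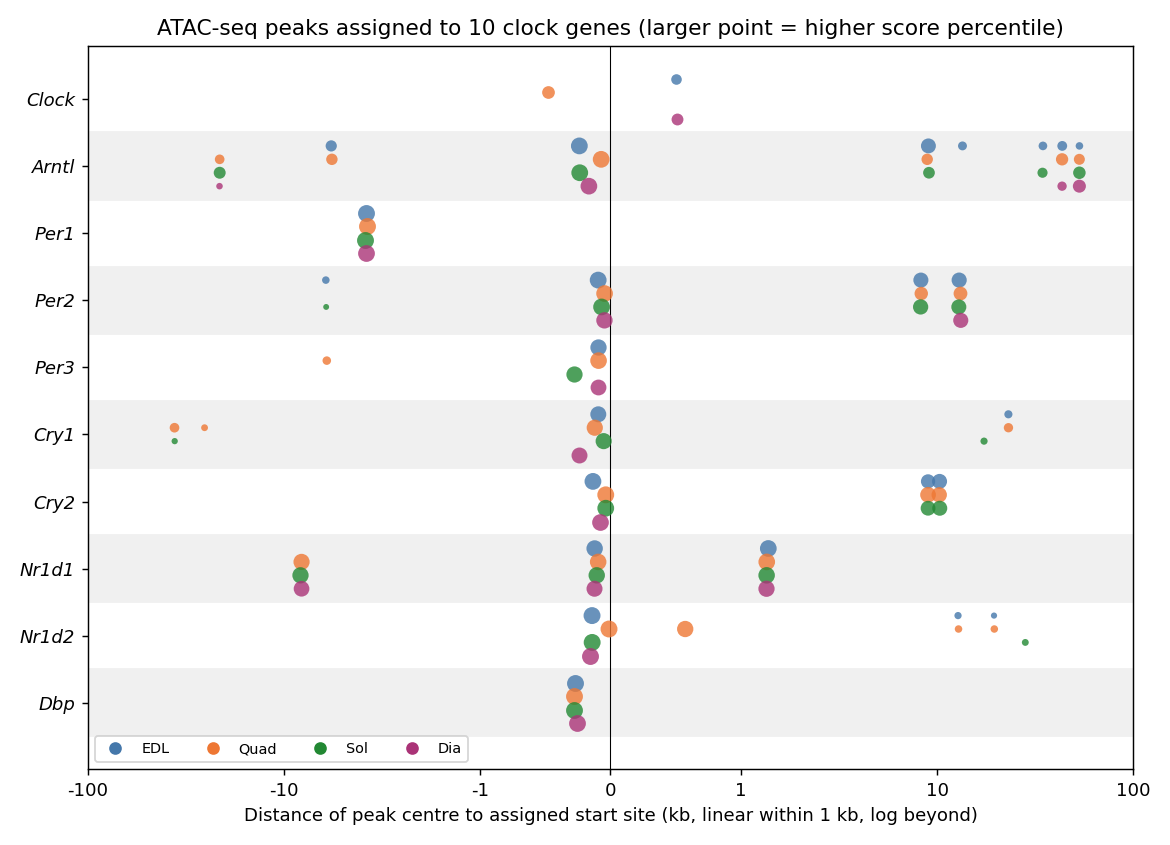
Distance of each peak centre from the start site used in the authors' annotation (x axis, kb, linear within 1 kb and logarithmic beyond), by gene (rows) and muscle (colour), with larger points for higher score percentiles. Large points gather at the start sites, the only large points of Per1 sit at -3828 to -3769 bp, and Quad alone has a point at 572 bp of Nr1d2.

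Arntl encodes BMAL1, the obligate partner of CLOCK, and had the most open regions of the members, 8 in and upstream of its gene (ENSMUSG00000055116.8, chr7:113207465-113314126, + strand). Its promoter peak scored 25.5 in EDL and 25.1 in Quad, with 24.5 in Sol and 22.8 in Dia, within a range of 1.12-fold and at percentiles of 96.9 to 98.1. Including the promoter, Arntl had 7 peaks in EDL and 6 in Quad, with 5 in Sol and 4 in Dia.

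In intron 1 of Arntl, at 9023 bp, the score was 10.5 in EDL, 5.76 in Quad and 6.5 in Sol, and Dia had no peak within 8850 bp. EDL stood above the others there, with 109 tags against 45 in Quad and 68 in Sol. These tags come from unequal inferred depths, 104 M in EDL, 78.1 M in Quad and 105 M in Sol. The peaks of the region overlap only in part, with centres spread over 188 bp. The region in intron 2 at 53148 bp was ordered the other way, with scores of 4.33 in EDL and 5.51 in Quad, beside 7.17 in Sol and 8.06 in Dia. These correspond to 45, 43, 75 and 80 tags at unequal depths, and the higher pair of scores was that of the slow soleus and the diaphragm. The other intronic peaks of Arntl scored between 4.71 and 6.4, at 13463 bp in EDL (4.81), at 34552 bp in EDL (4.71) and Sol (5.45), and at 43378 bp in EDL (5.2), Quad (6.4) and Dia (5.44). Upstream, a peak at -5702 bp was called in EDL (5.96) and Quad (5.76), and one at -21227 bp in Quad (4.87), Sol (6.69) and Dia (4.43). No list had all 8 regions.

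Clock itself, which encodes the partner of BMAL1 in the activator, had the weakest start site peaks (ENSMUSG00000029238.11, chr5:76209868-76304792, - strand). Its assigned promoter region, chr5:76303883-76304154, scored 5.58 in EDL, 6.79 in Quad and 6.95 in Dia, at percentiles of 33, 52.1 and 44.1, and it had no call in Sol. This region lies inside the longest gene model, 504 bp from a start in EDL, and the Quad peak was placed at -475 bp of an alternative start. At the 5' end of the model another promoter peak was called in all 4 lists but was assigned to Gm7467, a transcript that begins beside it on the opposite strand. It scored 7.7 in EDL and 12.3 in Quad, and 8.32 in Sol and 10.3 in Dia, at percentiles of 57, 83.3, 60.3 and 70.4. Clock in Sol was therefore without an assigned peak but not without a peak at its start, 581 bp away from the assigned region.

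The Period genes encode the repressors whose transcription also responds to hormones and, in the brain, to light. Per1 (ENSMUSG00000020893.17, chr11:69095217-69109960, + strand) had a single region, chr11:69095018-69095274, which scored 32.0 in EDL and 32.7 in Quad, with 29.8 in Sol and 24.7 in Dia. All 4 were among the strongest peaks of their lists, at percentiles of 99.5, 99.5, 99.4 and 97.9. The authors' annotation calls the region intergenic, at -3814 bp of its RefSeq start, and so Per1 has no promoter peak in any list. Measured from the GENCODE start of Per1, the peak centres lay at -87 bp in EDL and -37 bp in Quad, with -96 bp in Sol and -77 bp in Dia. The E-box printed above lies in the EDL, Sol and Dia peaks, and the Quad peak begins after it.

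Per2 (ENSMUSG00000055866.9, chr1:91415982-91459324, - strand) had the widest range of the member promoters after centring, although Per3 was as wide on the scores themselves (1.48-fold against 1.47-fold). Its promoter peak scored 26.5 in EDL and 22.2 in Quad, beside 23.1 in Sol and 18.0 in Dia, with EDL the highest and Dia the lowest. The intron 1 peak at 8259 bp scored 10.9 in EDL, 7.56 in Quad and 11.5 in Sol, and Dia had none within 4690 bp. In intron 4, Quad (8.07) and Dia (11.8) shared a region at 13173 bp, and EDL (11.1) and Sol (10.9) shared one at 12923 bp. Only 4 bp separate these regions, so all 4 muscles were open within the same stretch of intron. A weak upstream peak at -6087 bp was called in EDL (4.33) and Sol (3.82). A further Per2 intron peak, in all 4 lists, was assigned to Hes6, a neighbouring bHLH gene, at scores of 10.3 in EDL and 13.3 in Quad, and 9.27 in Sol and 9.87 in Dia.

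Per3 (ENSMUSG00000028957.12, chr4:151003652-151044665, - strand) had its promoter peak at 16.5 in EDL and 21.5 in Quad, with 15.9 in Sol and 14.5 in Dia. Quad was the highest and the other 3 were close to each other. Its peak centre in Sol, at -278 bp, was farther out than the -92 bp of EDL, -91 bp of Quad and -96 bp of Dia. Quad also had a weak peak at -6031 bp (4.48).

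The cryptochromes are the strongest direct inhibitors of CLOCK and BMAL1. Cry1 (ENSMUSG00000020038.10, chr10:85131700-85185064, - strand) had promoter scores of 14.2 in EDL and 15.9 in Quad, beside 15.1 in Sol and 15.1 in Dia. These values lay within 1.12-fold of each other. Its other regions were weak and scattered, with scores of 3.92 to 4.87: at 23095 bp in EDL and Quad, at 17343 bp in Sol, at -25348 bp in Quad and at -36039 bp in Quad and Sol. Dia had none of them.

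Cry2 (ENSMUSG00000068742.11, chr2:92403646-92434043, - strand) had stronger peaks, with promoter scores of 26.3 in EDL and 30.0 in Quad, and 24.4 in Sol and 22.9 in Dia. A pair of intron peaks accompanied it in the hindlimb muscles. The one at 8985 bp scored 9.14 in EDL, 12.8 in Quad and 10.4 in Sol, and the one at 10285 bp scored 10.7, 11.5 and 10.9. Dia had no peak within 8843 bp of the former or 10112 bp of the latter. At 67.8 to 84.7, the percentiles of these intron peaks were well inside the hindlimb lists.

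Nr1d1 encodes REV-ERB alpha, a haem-binding repressor of Arntl and of metabolic genes, and is compact (ENSMUSG00000020889.11, chr11:98767932-98775333, - strand). Its promoter scored 18.0 in EDL and 19.5 in Quad, with 17.6 in Sol and 15.4 in Dia. A second peak in intron 1, at 1350 bp, scored higher than the promoter in every list, with 23.3 in EDL and 21.5 in Quad, beside 18.8 in Sol and 17.0 in Dia. It holds the D-box word. The third region, chr11:98783374-98783694 at -8113 bp, had scores of 15.8 in Quad and 16.4 in Sol, with 13.8 in Dia. The percentiles were 90.6, 91.7 and 84.3, and EDL had no peak within 3186 bp. Of 926 regions called in the other 3 lists but not in EDL, 28 (3.02%) reached percentile 84 in all 3. That limit was set from this region's own values after seeing the data, so the share does not measure how unusual the region is.

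Nr1d2 encodes REV-ERB beta (ENSMUSG00000021775.11, chr14:18204054-18239127, - strand) and had the highest promoter scores of the members, 36.8 in EDL and 34.2 in Quad, and 30.6 in Sol and 30.9 in Dia. Their percentiles were 99.5 to 99.9. Quad alone had a further peak in the first intron at 572 bp, chr14:18238440-18238628, with a score of 16.9 and a percentile of 92.1, the stretch printed above with 2 E-boxes and a D-box. The nearest peak of the other 3 lists was their promoter peak, 515 bp away. Of the 12228 regions called in Quad alone, 41 (0.335%) reached percentile 92. This limit too was set from the peak's own percentile after seeing the data, and the share is no measure of how unusual the peak is. The remaining Nr1d2 peaks were near the thresholds: at 12814 bp in EDL (4.23) and Quad (4.23), at 19531 bp in EDL (3.94) and Quad (4.23), and at 28158 bp in Sol (4.11).

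Dbp, a clock output factor whose mRNA cycles strongly in most tissues, had 1 region in all 4 lists (ENSMUSG00000059824.12, chr7:45705088-45710203, + strand). The promoter peak scored 32.3 in EDL and 30.1 in Quad, with 27.3 in Sol and 24.9 in Dia, at percentiles of 98 to 99.6. EDL was the highest and Dia the lowest, and no further peak was assigned to the gene.

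**Figure D3:**
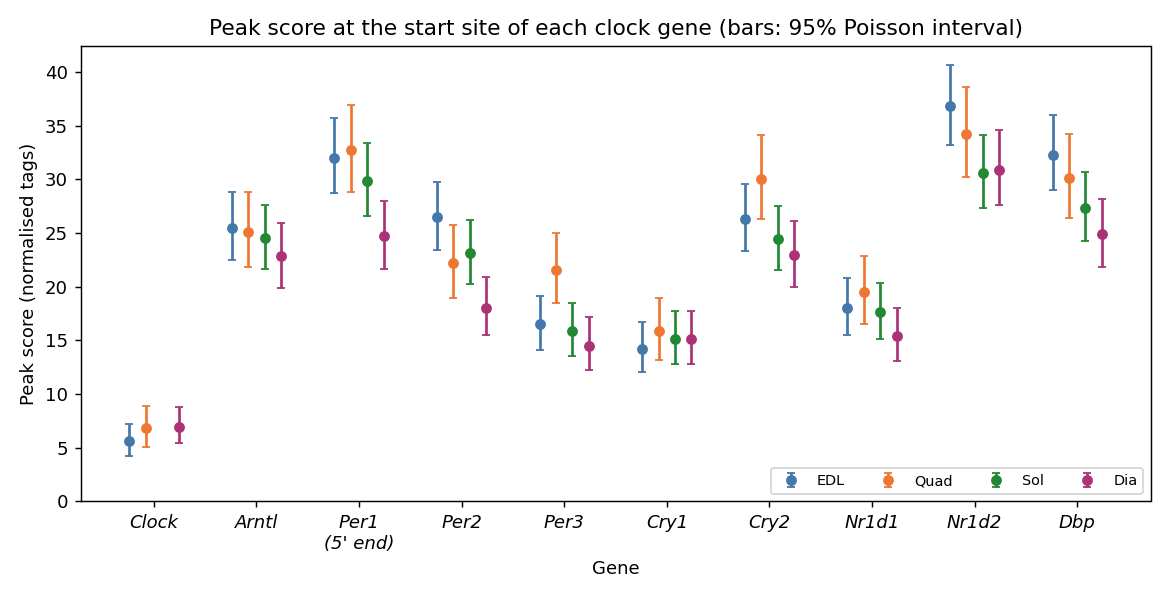
Peak score at the start site of each clock gene (y axis, normalised tags) in the 4 muscles, with 95% Poisson intervals that cover counting error only. The assigned promoter region is shown, except for Per1, where the region at its GENCODE 5' end is plotted, and scores run from 5.58 for Clock in EDL, which Sol lacks, to 36.8 for Nr1d2 in EDL.

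Sharing between muscles was asked next. Of the 9 member promoter regions, 8 were open in all 4 lists and 1, that of Clock, in 3, whereas 66.1% of all promoter regions were open in all 4 and 14.5% in exactly 1. Of the 25 other member regions, 3 were open in all 4 lists, 7 in 3, 9 in 2 and 6 in 1. Among all non-promoter regions 16% were open in all 4 and 50.5% in exactly 1. The 3 shared non-promoter regions were the 5' end of Per1, intron 1 of Nr1d1 and the 53148 bp region of Arntl. Of the 6 regions in a single list, 3 were in Quad, 2 in Sol and 1 in EDL, and the Quad peak of Nr1d2 was the only one above percentile 20.5.

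Pairs of lists shared 13 to 21 member regions. EDL and Quad shared 21 of 32 regions held by either (65.6%), which was 84% of the EDL and 75% of the Quad regions. Each of the 16 Dia regions also had a Quad peak, and these were 57.1% of the Quad regions. EDL and Dia shared 13 of 28, or 46.4%. Over all regions the share held by both lists was 52.8% for EDL and Quad, 39.2% for Quad and Dia, where the members had 57.1%, and 47.6% for EDL and Dia. Of all regions, 17426 were held by both Quad and Dia, beside 21582 Dia and 40337 Quad peaks. EDL and Quad both held 24360, beside 30136 EDL peaks. Most Dia and most EDL peaks of any gene thus lay in regions shared with Quad. The Dia list is the shortest and the Quad list the longest. With the top 20000 scores of every list, 10 member regions were open in all 4 and 4 in exactly 1, in place of 11 and 6. A 50% reciprocal overlap between peaks gave 8 and 12. Joining peaks within 500 bp, which unites the neighbouring Per2 intron 4 regions, gave 12 and 5.

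Scores at shared regions were compared as ratios, centred on the median ratio of all regions that a pair of lists shared. A region counted as past 2-fold in either direction when the best scores differed by more than that. Between EDL and Quad, 1 of 21 member regions did, against 0.456% of 24360 shared regions. It was the Arntl intron 1 region at 9023 bp, 2.01-fold higher in EDL (95% interval for the counts 1.4 to 2.9). Without centring the ratio was 1.82, below the limit. For the other pairs the count of member regions was 0, of 18 between EDL and Sol (1.05% of all shared regions), of 13 between EDL and Dia (1.35%) and of 18 between Quad and Sol (1.38%). It was also 0 of 16 between Quad and Dia (1.06%) and 0 of 13 between Sol and Dia (0.678%).

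At 1.5-fold, 2 of 21 member regions passed between EDL and Quad (8.17% of all shared regions), 2 of 18 between EDL and Sol (8.43%) and 1 of 13 between EDL and Dia (10.9%). The counts were 2 of 18 between Quad and Sol (10.5%), 2 of 16 between Quad and Dia (10.4%) and 0 of 13 between Sol and Dia (8.96%).

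Smaller differences exceeded counting error at some members, as they did at all shared regions. The interval of the ratio left out 1 at 4 of 21 member regions between EDL and Quad (14.6% of all shared regions), 5 of 18 between EDL and Sol (17.4%) and 5 of 13 between EDL and Dia (20.3%). It did so at 2 of 18 between Quad and Sol (17.2%), 3 of 16 between Quad and Dia (17.7%) and 1 of 13 between Sol and Dia (18.1%). The Arntl intron 2 region at 53148 bp was 1.91-fold higher in Dia than in EDL (1.31 to 2.82) and 1.64-fold higher in Sol than in EDL (1.12 to 2.42). Against Quad it was 1.67-fold higher in Dia (1.14 to 2.48) and 1.43-fold higher in Sol, where the interval of 0.97 to 2.13 includes 1. The Per2 promoter was 1.43-fold higher in EDL than in Dia (1.18 to 1.74) and 1.32-fold higher in EDL than in Quad (1.08 to 1.6). The Per2 intron 1 region was 1.67-fold higher in Sol than in Quad (1.21 to 2.32). These intervals hold no spread between animals, which cannot be estimated from 1 library per muscle.

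**Figure D4:**
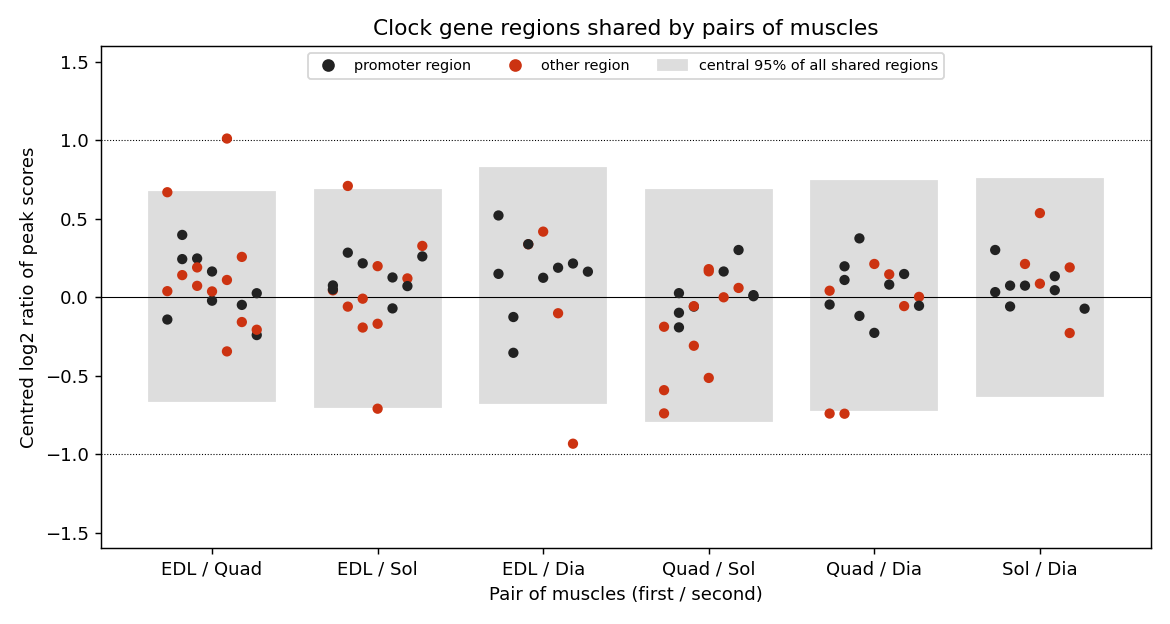
Centred log2 ratio of peak scores (y axis) at member regions shared by each pair of muscles, with promoter regions in black, other regions in red, 2-fold as dotted lines and the central 95% of all shared regions in grey. The only point past 2-fold is the Arntl intron 1 region, at 1.01 for EDL over Quad, and promoter regions lie nearer to 0 than the widest intronic ones.

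Across the 4 muscles the member promoters spanned little. The range of the centred log2 score was 0.47 for Per2, 0.32 for Per3, 0.29 for Dbp, 0.28 for Nr1d2, 0.19 for Arntl, 0.17 for Cry1, 0.15 for Cry2 and 0.14 for Nr1d1. The median of these 8 was 0.24, beside 0.37 over all 7760 promoter regions open in 4 lists. Stronger peaks have smaller counting error, and the part of that in the lower median was not tested. By Euclidean distance of the log2 scores over the 4 muscles, each centred on its list's median over regions open in all 4, the promoters most like that of Per2 were Alkbh5 (0.115), Rpl31 (0.14) and Dapk3 (0.167). Those most like Per3 were Gm527 (0.0893), Tmem87a (0.103) and Eif4b (0.105).

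Another 20 genes of the clock network, chosen with earlier results known, had 70 peaks in EDL and 92 in Quad, beside 66 in Sol and 49 in Dia. These are totals over the 20 genes, and Rora alone had 18, 23, 14 and 12 of them. For scale, an average gene with any peak had 2.15, 2.59, 2.06 and 1.67, which are values per gene. Of the 20 genes 11 had a promoter peak in all 4 lists, 7 in some and 2, Npas2, a paralogue of Clock, and Csnk1e, a kinase of the PER proteins, in none. Among all 17158 genes with a peak in some list, 40.8% had a promoter peak in all 4. Rora, a receptor that competes with REV-ERB for ROREs, had the most peaks, 67 over the lists, followed by Nampt with 32 and Hlf and Wee1 with 21 each. Promoter peaks in some lists only were called for Rorb (EDL and Quad), Nfil3 (Quad and Sol) and Bhlhe41 (Sol and Dia). The same held for Csnk1d (Quad and Dia), Timeless (all but Dia), Tcap (EDL and Quad) and Myod1 (all but Dia).

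Peaks at other genes also fell within 10 kb of the member genes. Mterf2, a neighbour of Cry1, had a promoter peak in all 4 lists, with scores from 13.1 in EDL to 17.6 in Sol, close in size to those of Cry1. The Hes6 promoter next to Per2 scored 17.2 in EDL and 21.4 in Quad, and 18.1 in Sol and 21.2 in Dia. Near Dbp, the Sphk2 promoter scored 17.8 in EDL, 19.5 in Quad and 22.7 in Sol, and Rpl18 scored 12.7 in EDL and 11.1 in Quad, with neither called in Dia within this distance. Vamp2, before Per1, scored 7.5 in EDL, 9.48 in Quad and 6.98 in Sol. Single-list peaks were assigned to Hes7 (Quad, 7.68), 1700020N18Rik (Quad, 6.4), D930015M05Rik (Quad, 4.48) and Mapk8ip1 (EDL, 4.52). The nearest-gene rule thus left peaks beside or within member genes that are not among the 92.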

How the data were processed

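The authors sequenced transposed nuclei from frozen muscle powder and aligned the reads to mm10 with Bowtie2. Using HOMER (version not given in the sources used here), they kept 1 tag per position, called peaks in each library and assigned each to the nearest TSS. The deposited lists give a peak score, which is a tag count scaled to library size, a focus ratio as a fraction, positions and the distance to the TSS. The focus ratio was not used in a comparison.

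Members were found by the gene name in the lists. Peaks of different lists that overlapped by at least 1 bp formed a merged region, and the best score of each list in it was used. All scores below 10 were whole multiples of one step (tolerance 0.0055), from which tags were inferred. Depths follow if HOMER scaled to 10 M tags. Ratios of inferred tags carry 95% exact binomial intervals and tags carry Poisson intervals. All intervals cover counting error only, because each muscle had 1 library. The reads hold no molecular identifiers. Ratio intervals were checked on simulated data. No p-value was computed. Gene positions were taken from GENCODE M21 and sequences from RefSeq, with samtools 1.23.1, pandas 2.3.3 and numpy 2.4.6 under python 3.11.15.

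The members, gene lists and motifs were chosen with earlier results of these data known. The text names all members. Of the other clock genes it names those with a promoter peak in some lists or none and those with the most peaks (4, because of a tie). It also names genes assigned to peaks within 10 kb of a member and the 3 promoters most like each of the 2 members with the widest promoter range. A further gene of the list of other clock genes is not reported here. Alternatives covered the number of peaks kept per list, the overlap rule, the centring and the promoter definition.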

Additional observations from a re-analysis of the deposited data

How the results depend on the processing

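When each list was shortened to its 20000 highest scores, member peaks were 16 in EDL and 17 in Quad. With the upper 50% of each list they were 15 in EDL and 17 in Quad, and 3 member regions were in exactly 1 list. A 50% reciprocal overlap put 12 regions in exactly 1 list. Without centring, 0 member regions were past 2-fold between EDL and Quad. At 1.5-fold, 2 member regions passed for EDL against each of Quad and Sol, 1 for EDL against Dia, and 2 for Quad against each of Sol and Dia. Of all regions shared by these pairs, 8.17% to 10.9% passed. The median promoter percentile in EDL, Quad, Sol and Dia became 96.3, 92, 95.4 and 92.4 among peaks in regions open in all 4 lists. Among promoter peaks alone it was 94.4, 87.4, 93.3 and 84.2, and in the 20000 highest-scored peaks 97.3, 92.7, 96.6 and 92. Of 79 alternative values, 55 stayed close to the reported one, counts within 1.5-fold, and 24 moved. A median percentile counted as moved unless it was exactly equal, so all the percentile alternatives above are among the 24. A count that changed to or from 0 also counted as moved. Scores per base pair left the ratio counts as they were, since centring removes the width.

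Counting members with a peak within 1 kb of the GENCODE start, whatever gene was assigned, was chosen after seeing the data and gave 10 in each list. The ratios of the Arntl intron 1 region under other settings were added then too, and lay between 1.82 and 2.01. The overlap rule was not among these settings. The percentile limits of 84 for the Nr1d1 region and 92 for the Nr1d2 peak were also chosen after seeing the data. Where a list lacks a peak, none was called with its width and threshold. No paired analysis was possible because each muscle had 1 library and no test was run. For the same reason no library was left out. Depth differed between libraries, and its part in the differences was not tested.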
